A study of Homo sapiens with 9 samples.

Results

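Potassium channel genes were followed with Affymetrix oligonucleotide arrays in Shef3, H14 and Shef1, which are established lines of human embryonic stem cells (hESC). The members were the genes whose symbol in the platform annotation starts with KCN, antisense and overlapping-transcript RNAs left out, and that a probe set named alone. They numbered 87 of 19775 genes with a probe set of their own. Where several probe sets named a gene, the brightest on average across all 9 arrays stood for it. The FGF3+10 group was grown on laminin after dissociation, for 14 days, in DFNB with 50 ng/ml of FGF3 and 50 ng/ml of FGF10. DFNB contains N2 and B27 supplements and no serum. The DFNB group had the same 14 days on laminin in the same medium with no FGF added. The hESC group was the undifferentiated culture at day 0, on mouse embryonic fibroblast feeders in knockout serum replacement medium with basic FGF. Each group held 3 arrays, 1 per cell line, so line differences are part of every within-group spread. All 3 groups share the same lines and carry no genetic change that the labels name. Values below are given in the order Shef3, H14, Shef1, and means are ± SD over 3 arrays per group. They are the deposited log values, taken as log2. The base is not given in the sources used here, so fold sizes depend on that assumption.

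Potassium channels are pores in the membrane that let potassium leave or enter the cell and so set its resting voltage and end its action potentials. Voltage-gated alpha subunits (KCNA to KCND, KCNQ, KCNH) open when the membrane depolarises, and the silent or modifier alpha subunits (KCNF, KCNG, KCNS, KCNV) form no working channel alone but join KCNB subunits. Inward rectifiers (KCNJ) and tandem-pore leak channels (KCNK) hold the resting potential, channels of the KCNM, KCNN and KCNT families respond to calcium or sodium, and KCNE, KCNAB and KCNIP proteins are auxiliary subunits that change the gating and trafficking of the pores. In the inner ear, KCNQ1 with KCNE1 secretes potassium into the endolymph, KCNJ10 in the stria vascularis makes the endocochlear potential, and KCNMA1 carries the large calcium-activated current of hair cells.

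Every array had the same median over its probe sets, set by the authors, and the values had no lower bound. The control probe sets for poly-A spike-ins, which are bacterial RNAs put in ahead of labelling, averaged 7.24 ± 0.04 in Shef1, against 5.06 ± 0.09 in H14 and 5.04 ± 0.36 in Shef3, so the Shef1 arrays stood apart in every group. For GAPDH the 3′ minus 5′ difference in control signal, a sign of RNA integrity, was 0.22 ± 0.09 in FGF3+10, 0.19 ± 0.01 in DFNB and 0.33 ± 0.17 in hESC. For ACTB it was 0.29 ± 0.34 in FGF3+10, 0.29 ± 0.23 in DFNB and 0.48 ± 0.21 in hESC, and it averaged 0.63 ± 0.08 over the Shef1 arrays, all 3 of which lay above those of Shef3 (0.28 ± 0.22) and H14 (0.14 ± 0.09). Dim genes varied more. For members averaging below 2 the median within-group SD was 1.11, against 0.829 for members averaging 4 or more. For all genes the same medians were 0.995 and 0.448.

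Most potassium channel genes gave low values in every condition. Level 6 was reached on at least 1 array by 17 of the 87 members (19.5%), against 10380 of all genes (52.5%). Of the rest, 27 had their highest value between 4 and 6, and 43 lay below 4 on all 9 arrays, 7 of them below 0. Arrays give no detection limit here, so a low value is not shown to be absence. The 17 were KCND2 among the voltage-gated alpha subunits (1 of 14), KCNG1, KCNG3 and KCNS3 among the modifiers (3 of 10), KCNQ5 (1 of 3), and none of 8 KCNH genes. They also held KCNJ2, KCNJ13 and KCNJ16 (3 of 13), KCNK1, KCNK5, KCNK6 and KCNK12 (4 of 14), KCNMA1, KCNMB4 and KCNT2 (3 of 11 in the KCNM, KCNN, KCNT and KCNU families), and the auxiliary KCNE3 and KCNIP4 (2 of 12). The members just inside the threshold peaked at 6.23 (KCNK6), 6.16 (KCND2), 6.08 (KCNT2) and 6.06 (KCNQ5), and those just outside at 5.70 (KCNJ4), 5.51 (KCNQ3), 5.47 (KCNC1) and 5.46 (KCNJ8). Level 6 was held on all 9 arrays by KCNMB4 and KCNK1, on all 3 FGF3+10 arrays by these 2 members alone, on all 3 DFNB arrays also by KCNMA1, and on all 3 hESC arrays by the first 2 and by KCNK5, KCNG1 and KCNG3. Over all genes these shares were 33.5% on all 9 arrays, 36.6% in FGF3+10, 37.9% in DFNB and 37.8% in hESC.

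**Figure D1:**
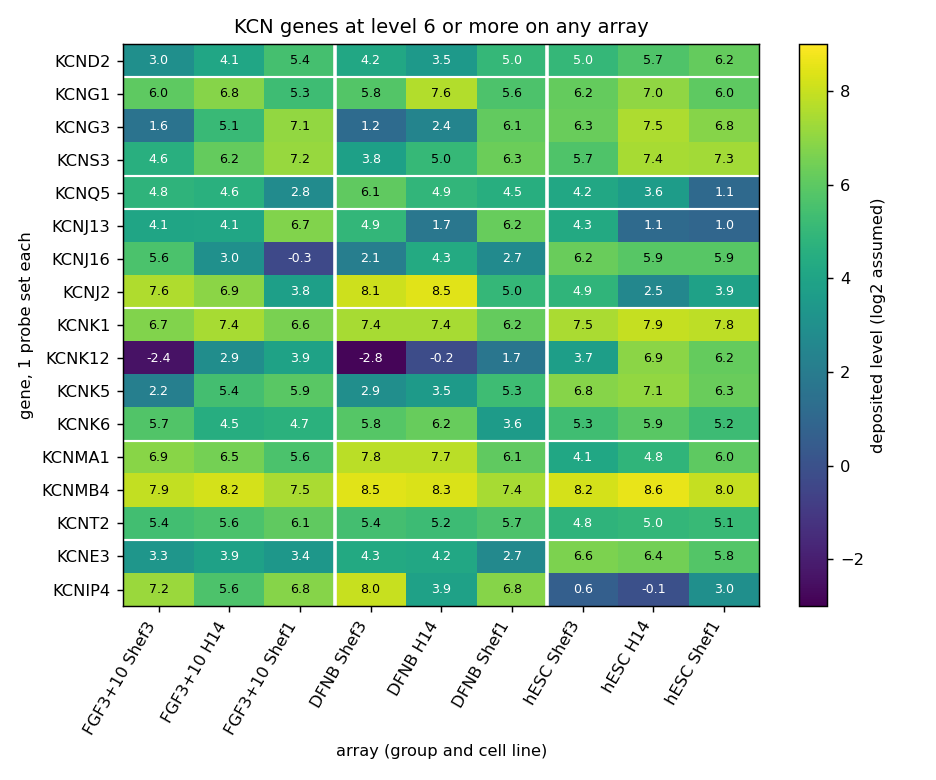
Level (deposited log value, taken as log2) of the 17 potassium channel genes that reached level 6 on any array, with 1 column per array ordered FGF3+10, DFNB, hESC and 1 row per gene. KCNMB4 and KCNK1 stay above 6 on all 9 arrays, while KCNIP4 is low on the 3 hESC arrays and KCNE3 is high on them.

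In the fit over all genes, 1 of 87 members was called in FGF3+10 against hESC and 1 of 87 in DFNB against hESC (limma, adjusted p below 0.05), and both times it was KCNS1, lower at day 14. Over all genes 0.177% were called in FGF3+10 against hESC and 0.202% in DFNB against hESC. The cell line occurs in every group and pairs the arrays. With the line as replicate block, 3 of 87 members were called in FGF3+10 (KCNS1, KCNE3 and KCNIP4; 0.582% of all genes) and 4 of 87 in DFNB (the same 3 and KCNK12; 0.956% of all genes). At an unadjusted p below 0.05 there were 19 members in FGF3+10 (21.8%, against 12% of all genes) and 21 in DFNB (24.1%, against 15.8%). The 2 comparisons share their hESC arrays, so their values are given side by side and not as 2 separate pieces of evidence.

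The FGF3+10 arrays did not overlap the hESC arrays for 20 members, 8 of them higher and 12 lower (23%, against 17% of all genes, of which 5.68% were higher and 11.3% lower). The DFNB arrays did not overlap hESC for 28 members, 12 higher and 16 lower (32.2%, against 22.1% of all genes, 7.8% higher and 14.3% lower). In 14 members both media were apart from hESC with the same sign. The matching share of all genes was not counted, and both media share their hESC arrays, so this number only describes the members. KCNC1, KCNH1, KCNIP4, KCNJ8, KCNRG and KCNT2 were higher in both, and KCNE3, KCNE5, KCNH6, KCNJ16, KCNK1, KCNK5, KCNS1 and KCNV2 were lower in both, KCNE5 in FGF3+10 by a near tie. Of the members that did not overlap, 13 in FGF3+10 and 11 in DFNB averaged below 4 in both groups, where the spread is widest. This too was not counted over all genes. The median log2 change over the members was -0.09 in FGF3+10 and -0.05 in DFNB, and over all genes -0.19 in both. Quantile normalization moved the median of all genes to -0.06 in FGF3+10 and -0.08 in DFNB, and that of the members to -0.04 in FGF3+10 and 0.0034 in DFNB. Changes are to be read relative to these shifts.

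**Figure D2:**
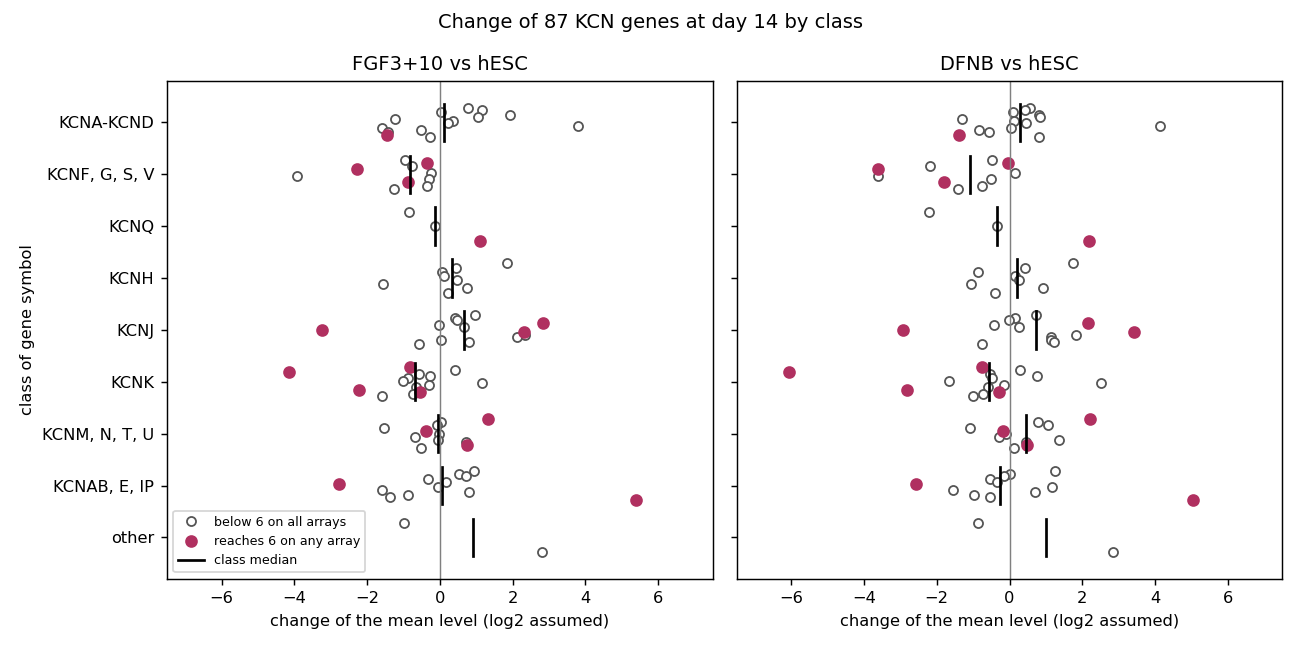
Log2 change of each of the 87 members by class, FGF3+10 minus hESC and DFNB minus hESC, with 1 point per gene. All 10 modifier subunits lie below 0 in FGF3+10 and 9 of 10 in DFNB, or 8 of 10 after quantile normalization, while KCNIP4 stands highest in each comparison.

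Among the 14 voltage-gated alpha subunits of KCNA to KCND, KCND2, which carries a fast transient current in heart and neurons, was the member that reached level 6. It read 2.98, 4.10 and 5.44 in FGF3+10 and 4.20, 3.47 and 4.99 in DFNB, against 4.99, 5.69 and 6.16 in hESC. In every line the hESC array was the highest, but the groups overlapped because Shef1 at day 14 stood above or level with Shef3 hESC. The log2 change was -1.44 ± 0.66 (SE) in FGF3+10 and -1.39 ± 0.66 in DFNB, and neither passed (limma adjusted p = 0.437 and 0.347). KCNC1, a channel of fast-spiking neurons chosen after its values were seen, read 3.59, 2.86 and 5.47 in FGF3+10 and 3.76, 4.61 and 4.61 in DFNB, against -0.02, 2.31 and -1.74 in hESC. Its day 14 arrays all lay above its hESC arrays. The changes were 3.79 ± 1.01 and 4.15 ± 1.01, with limma adjusted p of 0.190 in FGF3+10 and 0.129 in DFNB. The other 12 members of the class averaged between -4.99 and 4.58 in every group, and 8 of the 14 lay below 4 on all arrays.

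The modifier subunits held the called gene. KCNS1, which slows and shifts KCNB channels, read -1.43, -0.61 and -0.29 in FGF3+10 and -1.24, 0.11 and -0.27 in DFNB, against 2.90, 3.30 and 3.26 in hESC. The 3 hESC arrays had an SD of 0.22 and lay above all 6 day 14 arrays. KCNS1 fell by 3.93 ± 0.44 in FGF3+10 (limma adjusted p = 0.0210) and by 3.62 ± 0.44 in DFNB (0.0237). All 9 values were below 4, so with values below 4 set to 4 its change was 0 and the call was lost. The FGF3+10 call was also lost without any single FGF3+10 or hESC array (adjusted p 0.0564 to 0.0761), and the DFNB call without any single DFNB or hESC array or the FGF3+10 H14 array (0.0532 to 0.101). Without any 1 of the 3 lines it passed in neither medium.

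KCNG3, another silent subunit, read 1.56, 5.14 and 7.07 in FGF3+10 and 1.19, 2.43 and 6.10 in DFNB, against 6.26, 7.53 and 6.80 in hESC. The 3 hESC arrays were alike, and at day 14 the levels were lowest in Shef3 and nearest to hESC in Shef1, where FGF3+10 overlapped hESC and DFNB did not. Its change was -2.27 ± 1.53 in FGF3+10 and -3.62 ± 1.53 in DFNB (limma adjusted p = 0.594 and 0.305). KCNS3 read 4.58, 6.15 and 7.16 in FGF3+10 and 3.81, 5.02 and 6.29 in DFNB, against 5.71, 7.45 and 7.35 in hESC. Here too each day 14 array was below the hESC array of its own line, with differences of -1.29 to -0.18 in FGF3+10 and -2.43 to -1.06 in DFNB. The changes of KCNS3 were -0.87 ± 0.84 and -1.80 ± 0.84 (limma adjusted p = 0.716 in FGF3+10 and 0.342 in DFNB). KCNG1 averaged 6.04 ± 0.75 in FGF3+10, 6.35 ± 1.11 in DFNB and 6.40 ± 0.52 in hESC, and its groups overlapped. All 10 modifiers averaged lower in FGF3+10 than in hESC (62.4% of all genes did) and 9 of 10 in DFNB (60.5% of all genes), with medians of -0.82 and -1.08. Of the 10, KCNG1, KCNG3 and KCNS3 were the ones that averaged above 4 over the 9 arrays. Besides KCNS1, the fit called none of them, and the sign for KCNG1 in DFNB turned with quantile normalization (-0.05 as deposited, 0.015 after it).

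Of the KCNQ genes, KCNQ5, which carries a slow M-type current in neurons, read 4.82, 4.63 and 2.77 in FGF3+10 and 6.06, 4.88 and 4.52 in DFNB, against 4.19, 3.65 and 1.09 in hESC. Each DFNB array was above all hESC arrays, while the FGF3+10 arrays overlapped them because of Shef1. Its change was 1.10 ± 0.89 in FGF3+10 and 2.17 ± 0.89 in DFNB (limma adjusted p = 0.657 and 0.291). The other, dimmer probe set of KCNQ5 gave -0.34 in FGF3+10 and -0.06 in DFNB. KCNQ1 read -2.12, 1.66 and 2.34 in FGF3+10 and -1.77, -1.20 and 0.79 in DFNB, against 0.79, 1.87 and 1.77 in hESC. The values were low in all groups, its changes of -0.85 ± 1.14 and -2.21 ± 1.14 did not pass (limma adjusted p = 0.806 in FGF3+10 and 0.383 in DFNB), and its other probe set gave 1.56 and 0.02. KCNQ3 averaged 4.65 ± 0.82 in FGF3+10, 4.43 ± 0.77 in DFNB and 4.78 ± 0.38 in hESC.

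None of the 8 KCNH genes, the EAG, ERG and ELK channels, reached level 6, and 6 stayed below 4 on all arrays. KCNH2, the ERG channel that repolarises the heart, averaged 5.04 ± 0.29 in FGF3+10, 5.04 ± 0.04 in DFNB and 4.60 ± 0.84 in hESC. KCNH6, an ERG channel chosen after its values were seen, read 1.57, 1.63 and 1.29 in FGF3+10 and 1.76, 1.69 and 2.49 in DFNB, against 3.0, 3.07 and 3.06 in hESC. All 6 day 14 arrays of KCNH6 were below the hESC arrays, and its change of -1.55 ± 0.30 in FGF3+10 had a limma adjusted p of 0.101, that of -1.07 ± 0.30 in DFNB one of 0.168. Its dimmer probe sets differed in sign, with 0.24 and -1.14 in FGF3+10 and 0.40 and -1.13 in DFNB.

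Among the inward rectifiers KCNJ2, the main channel of the resting current in heart and muscle, read 7.59, 6.90 and 3.77 in FGF3+10 and 8.09, 8.45 and 5.01 in DFNB, against 4.87, 2.54 and 3.87 in hESC. In Shef3 and H14 the day 14 arrays were above hESC, whereas in Shef1 the difference was -0.11 in FGF3+10 and 1.14 in DFNB. The change was 2.32 ± 1.21 in FGF3+10 and 3.42 ± 1.21 in DFNB (limma adjusted p = 0.483 and 0.244). KCNJ16, which pairs with KCNJ10 in epithelia, read 5.61, 3.05 and -0.35 in FGF3+10 and 2.12, 4.32 and 2.73 in DFNB, against 6.24, 5.88 and 5.86 in hESC. Every day 14 array lay below the hESC arrays, and in FGF3+10 the difference within lines ran from -0.63 in Shef3 to -6.21 in Shef1. KCNJ16 changed by -3.23 ± 1.29 and -2.94 ± 1.29, and neither value passed (limma adjusted p = 0.365 in FGF3+10 and 0.316 in DFNB).

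KCNJ13, a channel of the retinal pigment epithelium and choroid plexus, read 4.07, 4.11 and 6.70 in FGF3+10 and 4.93, 1.74 and 6.22 in DFNB, against 4.30, 1.13 and 0.96 in hESC. The day 14 difference from hESC in Shef1 was 5.75 in FGF3+10 and 5.26 in DFNB, and in Shef3 the values differed by -0.24 and 0.62. Over the lines the change was 2.83 ± 1.34 in FGF3+10 and 2.16 ± 1.34 in DFNB (limma adjusted p = 0.445 and 0.456). KCNJ10 stayed low, at 1.03 ± 1.54 in FGF3+10, 0.77 ± 1.34 in DFNB and 0.62 ± 0.61 in hESC, and its other probe set had the opposite sign (-1.27 in FGF3+10 and -0.84 in DFNB). KCNJ8, a subunit of ATP-sensitive channels in vessels, chosen after its values were seen, averaged 4.34 ± 0.19 in FGF3+10 and 4.78 ± 0.65 in DFNB, against 3.54 ± 0.18 in hESC. Its groups did not overlap hESC, with changes of 0.80 ± 0.37 and 1.23 ± 0.37 that did not pass (limma adjusted p = 0.433 in FGF3+10 and 0.178 in DFNB). Of the 13 inward rectifiers, 10 averaged higher in FGF3+10 and 9 in DFNB, or 10 in both after quantile normalization. Over all 19775 genes, 7432 averaged higher in FGF3+10 and 7810 in DFNB, or 9023 and 8990 after quantile normalization. Of the 13, 4 lay below 4 on all arrays.

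Of the tandem-pore channels 12 of 14 averaged lower in FGF3+10 (62.4% of all genes did) and 11 of 14 lower in DFNB (60.5% of all genes). Their medians were -0.69 and -0.56. These counts were the same after quantile normalization, where 54.4% and 54.5% of all genes were lower. Of the 14, 7 lay below 4 on all arrays. KCNK12, a silent member of the family, read -2.40, 2.88 and 3.92 in FGF3+10 and -2.84, -0.23 and 1.72 in DFNB, against 3.73, 6.92 and 6.16 in hESC. Within each line the hESC array was the highest. The DFNB arrays did not overlap hESC, and the FGF3+10 Shef1 array just passed the Shef3 hESC array. Its change of -6.05 ± 1.76 in DFNB was the most negative of any member (limma adjusted p = 0.173, and 0.0367 with the replicate block), and that in FGF3+10 was -4.13 ± 1.76 (0.400, and 0.0785 with the block). With values below 4 set to 4 both changes were -1.69 (limma adjusted p = 0.512 in FGF3+10 and 0.408 in DFNB).

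KCNK5, an acid-sensitive channel of kidney epithelium, read 2.16, 5.42 and 5.92 in FGF3+10 and 2.92, 3.53 and 5.29 in DFNB, against 6.83, 7.06 and 6.28 in hESC. All day 14 arrays lay below hESC, and the gap was widest in Shef3 and narrowest in Shef1. The change was -2.22 ± 0.98 in FGF3+10 and -2.81 ± 0.98 in DFNB (limma adjusted p = 0.421 and 0.239). KCNK1, a leak channel found in many tissues, read 6.74, 7.44 and 6.60 in FGF3+10 and 7.41, 7.42 and 6.15 in DFNB, against 7.5, 7.95 and 7.79 in hESC. These groups did not overlap either, though the changes were only -0.82 ± 0.42 and -0.75 ± 0.42 (limma adjusted p = 0.481 in FGF3+10 and 0.417 in DFNB). KCNK6 reached level 6 on the DFNB H14 array alone (6.23) and averaged 4.95 ± 0.68 in FGF3+10, 5.21 ± 1.41 in DFNB and 5.50 ± 0.37 in hESC. KCNK2, a stretch-sensitive channel of neurons, and KCNK17 were chosen after their values were seen. KCNK2 averaged -0.52 ± 1.81 in FGF3+10 and 0.83 ± 0.58 in DFNB, against -1.68 ± 0.75 in hESC, and KCNK17 averaged 3.39 ± 0.97 in FGF3+10 and 2.74 ± 0.35 in DFNB, against 4.42 ± 0.42 in hESC.

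In the calcium- and sodium-activated families, KCNMA1, the pore of the large-conductance (BK) channel, read 6.85, 6.50 and 5.61 in FGF3+10 and 7.78, 7.75 and 6.08 in DFNB, against 4.14, 4.84 and 6.0 in hESC. Its day 14 values were higher in Shef3 and H14, and in Shef1 they differed from hESC by -0.39 in FGF3+10 and 0.08 in DFNB. KCNMA1 changed by 1.33 ± 0.64 in FGF3+10 and 2.21 ± 0.64 in DFNB (limma adjusted p = 0.451 and 0.170). Of its 3 other probe sets, 2 gave larger changes, 2.24 and 3.14 in FGF3+10 and 2.59 and 4.34 in DFNB, and the dimmest gave -0.53 and 1.00. KCNMB4, the neuronal beta subunit of the BK channel, read 7.88, 8.22 and 7.49 in FGF3+10 and 8.48, 8.31 and 7.43 in DFNB, against 8.22, 8.58 and 7.97 in hESC. It was steady across conditions, with overlapping groups and changes of -0.39 ± 0.38 and -0.18 ± 0.38 (limma adjusted p = 0.715 in FGF3+10 and 0.844 in DFNB). KCNT2, a sodium-activated channel, read 5.39, 5.61 and 6.08 in FGF3+10 and 5.39, 5.24 and 5.65 in DFNB, against 4.79, 4.95 and 5.09 in hESC. All its day 14 arrays were above hESC by a small margin, 0.75 ± 0.29 in FGF3+10 and 0.48 ± 0.29 in DFNB (limma adjusted p = 0.357 and 0.446). The other probe set of KCNT2 gave 0.53 in FGF3+10 and -0.19 in DFNB.

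**Figure D3:**
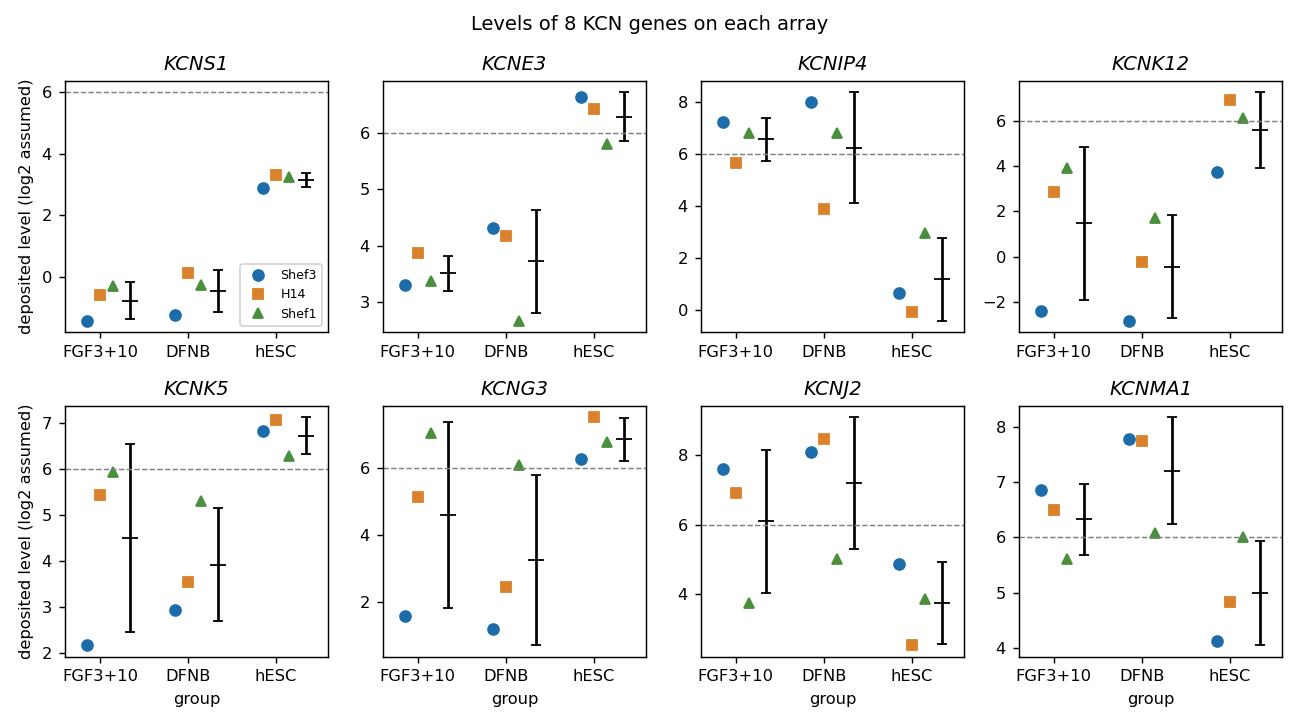
Level (deposited log value, taken as log2) of selected potassium channel genes on each array, with groups in the order FGF3+10, DFNB, hESC and 1 symbol per cell line. KCNS1 and KCNE3 are lower on all 6 day 14 arrays than on the 3 hESC arrays and KCNIP4 is higher on all 6.

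Among the auxiliary subunits, 2 members passed with the replicate block, with opposite signs. KCNIP4, a calcium sensor that binds KCND channels, read 7.22, 5.63 and 6.81 in FGF3+10 and 8.0, 3.86 and 6.81 in DFNB, against 0.64, -0.09 and 2.96 in hESC. All 6 day 14 arrays were above the 3 hESC arrays in each line, while KCND2, an alpha subunit it binds, was lower at day 14 within each line. The change of KCNIP4 was 5.38 ± 1.12 in FGF3+10 (limma adjusted p = 0.109, and 0.0499 with the replicate block) and 5.05 ± 1.12 in DFNB (0.103, and 0.0468 with the block). Its other probe set gave 4.59 and 5.07. With values below 4 set to 4 the changes were 2.55 in FGF3+10 and 2.27 in DFNB (limma adjusted p = 0.498 and 0.436). KCNE3, a single-span subunit that holds KCNQ1 open in epithelia, read 3.30, 3.87 and 3.37 in FGF3+10 and 4.31, 4.18 and 2.67 in DFNB, against 6.63, 6.43 and 5.81 in hESC. The hESC arrays stood clear of all day 14 arrays, and the differences within lines ran from -3.33 to -2.44 in FGF3+10 and from -3.14 to -2.25 in DFNB. The change of KCNE3 was -2.78 ± 0.48 in FGF3+10 (limma adjusted p = 0.0739, and 0.0452 with the block) and -2.57 ± 0.48 in DFNB (0.0694, and 0.0439 with the block). It passed as well with values below 4 set to 4 (limma adjusted p = 0.0235 in FGF3+10 and 0.0273 in DFNB), but not with the mean of probe sets (0.131 and 0.130). Its 2 dimmer probe sets had changes of the same sign, -1.47 and -1.45 in FGF3+10 and -0.72 and -1.95 in DFNB.

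KCNE1 read 3.07, 2.36 and 3.49 in FGF3+10 and 1.57, 3.22 and 3.44 in DFNB, against 4.57, 2.21 and 3.08 in hESC. The groups overlapped and the sign differed between lines, and the limma adjusted p was 0.892 in FGF3+10 and 0.736 in DFNB. KCNE5, chosen after its values were seen, averaged 1.83 ± 1.14 in FGF3+10 and 1.87 ± 1.07 in DFNB, against 3.42 ± 0.42 in hESC. In FGF3+10 it was apart from hESC only by a near tie, with H14 at 3.03 in FGF3+10 and Shef1 at 3.03 in hESC. Outside the classes, KCNRG, a soluble regulator of Kv assembly also chosen after its values were seen, read 2.52, 3.04 and 3.55 in FGF3+10 and 3.85, 2.51 and 2.91 in DFNB, against -0.14, -1.23 and 2.08 in hESC. It was higher on all day 14 arrays, by 2.80 ± 0.78 in FGF3+10 and 2.85 ± 0.78 in DFNB (limma adjusted p = 0.208 and 0.159). The other member outside the classes, KCNQ1DN, was counted by its symbol alone. KCNQ1DN averaged -1.38 ± 0.52 in FGF3+10 and -1.25 ± 0.28 in DFNB, against -0.38 ± 0.50 in hESC. In DFNB it was apart from hESC only by a near tie, with Shef1 at -0.96 in both groups.

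The 250 bases before each annotated start of KCNE3 and KCNIP4 are shown because these members passed in both media with the block and in opposite directions. Sequences are from RefSeq on GRCh38.p14, on the strand of the gene, with the GC box (GGGCGG, or CCGCCC for the other strand) in capitals. KCNE3 has 1 start with a window, chr11:74467550-74467799 on the minus strand. KCNIP4 has 3, on the minus strand at chr4:21948773-21949022, chr4:21697741-21697990 and chr4:20984071-20984320.
KCNE3: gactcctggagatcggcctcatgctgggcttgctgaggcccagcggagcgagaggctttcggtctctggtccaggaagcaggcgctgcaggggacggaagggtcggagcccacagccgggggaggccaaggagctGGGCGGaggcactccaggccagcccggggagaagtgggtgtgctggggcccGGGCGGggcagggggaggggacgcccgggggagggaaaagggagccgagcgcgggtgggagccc
KCNIP4 start 1: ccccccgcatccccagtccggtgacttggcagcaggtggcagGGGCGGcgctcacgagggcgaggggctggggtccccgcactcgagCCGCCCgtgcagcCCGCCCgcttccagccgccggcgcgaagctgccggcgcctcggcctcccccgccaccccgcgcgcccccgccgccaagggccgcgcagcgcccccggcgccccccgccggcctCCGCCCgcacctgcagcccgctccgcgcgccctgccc
KCNIP4 start 2: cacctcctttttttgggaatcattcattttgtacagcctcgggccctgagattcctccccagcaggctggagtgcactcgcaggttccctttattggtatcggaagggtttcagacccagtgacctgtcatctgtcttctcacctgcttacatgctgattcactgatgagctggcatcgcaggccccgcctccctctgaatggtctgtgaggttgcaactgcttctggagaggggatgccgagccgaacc
KCNIP4 start 3: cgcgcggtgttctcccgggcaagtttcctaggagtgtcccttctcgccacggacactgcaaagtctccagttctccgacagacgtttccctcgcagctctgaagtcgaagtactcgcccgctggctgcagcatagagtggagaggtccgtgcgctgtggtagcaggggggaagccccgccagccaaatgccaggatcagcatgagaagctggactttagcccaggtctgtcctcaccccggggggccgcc
The KCNE3 window holds 2 GC boxes at 73.2% G and C. KCNIP4 start 1 holds 4 at 83.6%, while its starts 2 and 3 hold none, at 54.8% and 62.8%. Across 68 members with 105 such windows, 49.5% held a GC box, against 42.6% of 35116 windows of all genes. A TATA box (TATAAA) was in 8.57% against 10.7%, and an E box (CANNTG) in 59% against 61.8%, both strands read. A match is a description of letters in a window. The arrays do not say which start was used.

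The third comparison asks what the added FGF3 and FGF10 changed over the medium alone. No member was called, nor was any other gene (limma, 0% of all genes, with and without the replicate block). At an unadjusted p below 0.05 there was 1 member, KCNC2, a fast-spiking channel subunit, against 1.52% of all genes. It read -1.09, -1.19 and -1.64 in FGF3+10, against -0.33, 1.55 and -0.21 in DFNB, low values throughout. The groups did not overlap for 5 members (5.75%, against 3.18% of all genes), namely KCNA10, KCNA4 and KCNG2 higher and KCNC2 and KCNH6 lower in FGF3+10, and all of these averaged below 4. Among members that reached level 6, KCNMA1 was lower in FGF3+10 in all 3 lines (-0.92, -1.24 and -0.47), as were KCNQ5 (-1.23, -0.25 and -1.75) and KCNJ2 (-0.50, -1.55 and -1.25). KCNK12 (0.44, 3.11 and 2.20), KCNG3 (0.37, 2.71 and 0.96) and KCNS3 (0.78, 1.13 and 0.88) were higher in all 3. In the fit without the line, the changes were -0.88 ± 0.64 (SE) for KCNMA1, -1.08 ± 0.89 for KCNQ5 and -1.10 ± 1.21 for KCNJ2. They were 1.92 ± 1.76 for KCNK12, 1.35 ± 1.53 for KCNG3 and 0.93 ± 0.84 for KCNS3, and each gene overlapped between groups. That SE holds the spread between lines and does not measure the spread of the 3 differences within lines. Of the 87 members, 11 were higher in all 3 lines (12.6%, against 9.4% of all genes) and 9 lower (10.3%, against 12.5%). KCNK12 averaged 1.47 ± 3.39 in FGF3+10 and -0.45 ± 2.29 in DFNB.

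Between lines 0 of 87 members were called, against 0.46% of all genes (limma F test for cell line in a model of group and line). At an unadjusted p below 0.05 there were 22 members (25.3%, against 20.3% of all genes). KCNS3 averaged 4.70 ± 0.96 over the 3 Shef3 arrays, 6.21 ± 1.21 in H14 and 6.93 ± 0.57 in Shef1 (F = 23.8, limma adjusted p = 0.0668). It was called when genes averaging below 4 were left out (0.0249). KCNG1 was highest in H14, at 7.14 ± 0.43, against 6.0 ± 0.19 in Shef3 and 5.65 ± 0.36 in Shef1 (F = 12.2, adjusted p = 0.115 by limma). KCNK12 averaged -0.50 ± 3.67 in Shef3, 3.19 ± 3.59 in H14 and 3.94 ± 2.22 in Shef1, and KCNG3 3.01 ± 2.83, 5.04 ± 2.55 and 6.66 ± 0.50 in the same order. The limma adjusted p was 0.0777 for KCNK12 and 0.194 for KCNG3, which in hESC read 6.26, 7.53 and 6.80. KCNQ5 ran the other way, at 5.02 ± 0.95 in Shef3, 4.38 ± 0.65 in H14 and 2.79 ± 1.71 in Shef1. KCNA5, which did not reach level 6 and was chosen after its values were seen, averaged 1.90 ± 0.87, 2.32 ± 0.58 and -0.98 ± 0.60 in Shef3, H14 and Shef1 and just missed the threshold for adjusted p. For KCNS3, KCNG3, KCNK12 and KCNQ5 the line at 1 end was Shef1 and the line at the other end was Shef3. The H14 mean lay nearer to Shef1 for KCNS3, KCNG3 and KCNK12, and nearer to Shef3 for KCNQ5. Poly-A spike-ins and the ACTB 3′ minus 5′ difference were higher in Shef1 than in the other lines (above). The part of either in these levels was not tested.

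**Figure D4:**
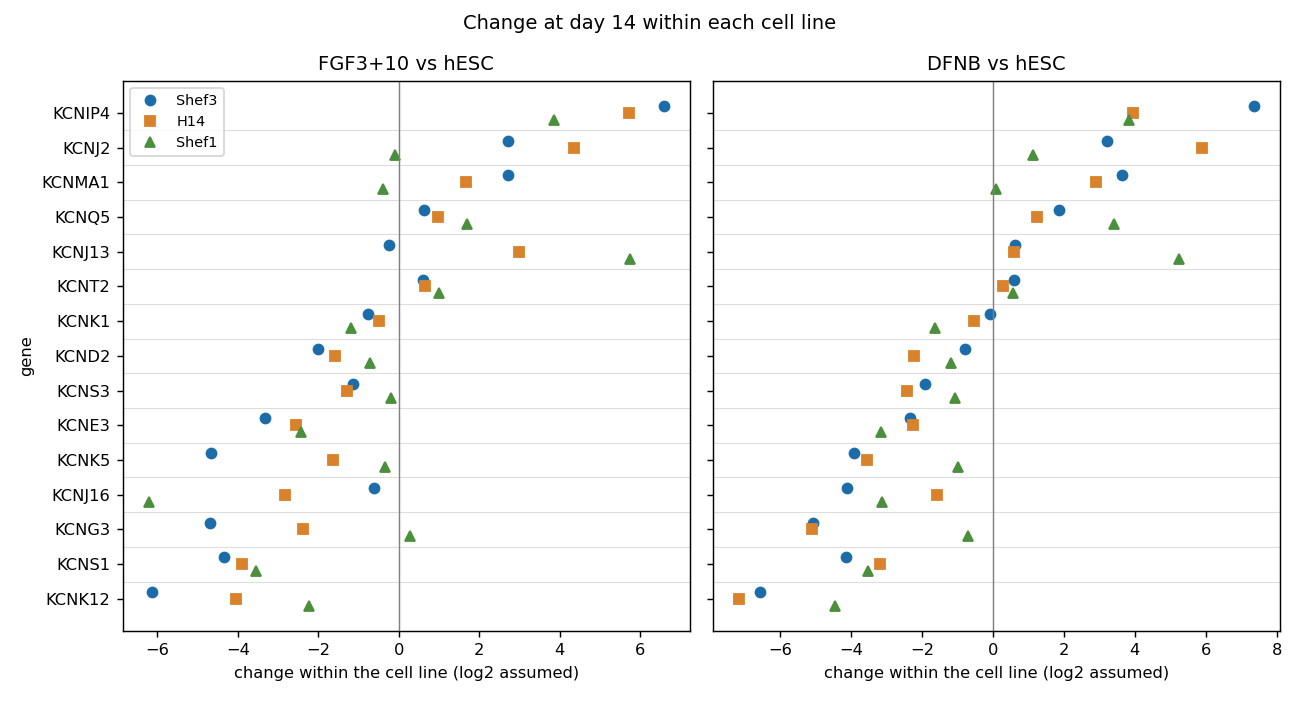
Log2 change in FGF3+10 and in DFNB against hESC of the same cell line, with 1 symbol per line (Shef3, H14, Shef1). Shown are KCNS1, which stayed below 4 on all arrays, and selected potassium channel genes that reached level 6 on any array. KCNMB4, KCNG1 and KCNK6 also reached it and are not shown. KCNE3 and KCNIP4 keep their sign and much of their size in all lines, while KCNG3, KCNJ2, KCNK5 and KCNMA1 lie nearer to 0 in Shef1.

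The size of the day 14 change was also set out by line. In FGF3+10, members more than 2 higher and more than 2 lower than in hESC numbered 11 and 14 in Shef3 (5.87% and 8.47% of all genes), 9 and 12 in H14 (3.57% and 5.59%) and 9 and 11 in Shef1 (3.8% and 4.38%). In DFNB they numbered 11 and 10 in Shef3 (6.56% and 7.81% of all genes), 12 and 13 in H14 (5.56% and 8.48%) and 7 and 7 in Shef1 (3.75% and 3.68%). Over all genes, too, the share past these limits was smaller in Shef1 than in Shef3, in both directions and both media. Averaged over both media, the day 14 change of KCNG3 came to -4.88 (Shef3), -3.74 (H14) and -0.21 (Shef1), and that of KCNK5 -4.29, -2.59 and -0.67. That of KCNMA1 ran in the same order with the opposite sign, at 3.18, 2.28 and -0.15. KCNJ2 had 2.97, 5.13 and 0.52, greatest in H14, and KCNJ13 had 0.19, 1.79 and 5.50, greatest in Shef1. In a test of line by day 14 added after seeing the data, no member was called (limma, 0% of all genes called), and 14 members (16.1%) had an unadjusted p below 0.05, against 19.4% of all genes. The limma adjusted p was 0.310 for KCNG3 and KCNK5, 0.239 for KCNJ2, 0.253 for KCNMA1 and 0.249 for KCNJ13. Its spread comes from the FGF3+10 and DFNB arrays of a line, which differ in medium.

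Markers of other cell states were set beside these values. The mean level of 9 measured pluripotency genes was 1.15, 6.54 and 6.12 in FGF3+10 and 1.15, 5.06 and 6.12 in DFNB, against 9.17, 8.85 and 7.68 in hESC, so Shef3 at day 14 stood apart. All 9 averaged lower in each medium and 1, DNMT3L, was called lower in both (limma adjusted p = 0.00461 in FGF3+10 and 0.00413 in DFNB). None averaged at or below 0 in hESC, where NANOG averaged 10.68, and DNMT3L averaged below 0 at day 14. The 8 neural progenitor genes averaged 7.17 to 8.73 per array in FGF3+10 and 6.28 to 8.46 in DFNB, against 4.78 to 5.92 in hESC, with 0 of 8 called. In each medium 5 of the 8 averaged higher than in hESC, while OTX2, FABP7 and NES averaged lower. Neuronal genes averaged 5.20 to 6.71 in FGF3+10 and 5.88 to 7.09 in DFNB, against 5.02 to 6.20 in hESC (0 of 10), and glial genes 1.80 to 2.75, 2.07 to 3.42 and 1.95 to 2.45 in FGF3+10, DFNB and hESC (0 of 5), with GFAP near 0 at 0.47, 0.08 and 1.39. Of the 5 glial genes, 2 averaged higher than in hESC in FGF3+10 and 3 in DFNB. Mesenchyme genes averaged 7.84 to 10.59 in FGF3+10 and 9.56 to 11.33 in DFNB, against 9.15 to 9.38 in hESC (0 of 6). Muscle genes averaged 5.34 to 6.13 in FGF3+10 and 5.97 to 6.29 in DFNB, against 6.05 to 6.56 in hESC (0 of 8). Of these, 7 averaged lower than in hESC in FGF3+10 and 5 in DFNB. ACTA2 went the other way and passed in DFNB with the replicate block (2.80, limma adjusted p 0.0411). Epithelial genes averaged 7.65 to 9.64, 7.83 to 10.10 and 8.06 to 8.51 in FGF3+10, DFNB and hESC (0 of 5), and endothelial genes 3.26 to 4.88, 3.91 to 4.30 and 3.88 to 4.48 (0 of 5). The array means did not overlap hESC for the pluripotency and neural progenitor genes in either medium, nor for the mesenchyme genes in DFNB, and overlapped for the other marker lists. These are bulk cultures, so fewer cells of a type and less RNA per cell cannot be told apart, and the part of cell makeup in the potassium channel values was not tested.

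Genes that work with potassium channels were set beside them. Of 17 measured partners none was called, with medians of 0.03 in FGF3+10 and -0.14 in DFNB. Their array means overlapped hESC in both media. LGI1, a secreted protein that binds KCNA complexes at synapses, averaged 7.89 in FGF3+10 and 8.0 in DFNB, against 3.65 in hESC. Its change of 4.24 ± 0.80 in FGF3+10 and 4.35 ± 0.80 in DFNB had limma adjusted p of 0.0923 and 0.0694, and of 0.0540 and 0.0450 with the replicate block. DPP6 and DPP10, which join KCND channels together with KCNIP proteins, had changes of 0.36 and -0.07 in FGF3+10 and of 0.25 and 0.23 in DFNB. Of 12 measured potassium pumps and cotransporters none was called (medians -0.21 in FGF3+10 and -0.07 in DFNB). No ATP1A alpha subunit was among those measured. Lower than in hESC were 7 of the 12 in FGF3+10 and 8 in DFNB. Over all genes 62.4% were lower in FGF3+10 and 60.5% in DFNB, with a median change of -0.19 in both. The array means of this list did not overlap hESC, at 4.23 to 4.58 in FGF3+10 and 4.19 to 4.59 in DFNB, against 4.68 to 4.96. The largest falls in these means were those of ATP12A (-2.64 in FGF3+10 and -3.04 in DFNB), ATP1B2 (-1.73 and -2.11) and ATP1B4 (-1.07 and -1.89). Higher than in hESC were 5 of the 12 in FGF3+10 and 4 in DFNB. ATP12A, the proton and potassium pump of colon epithelium, averaged 0.84 in FGF3+10 and 0.45 in DFNB, against 3.48 in hESC, and its change did not pass (limma adjusted p = 0.203 in FGF3+10 and 0.124 in DFNB). Of 20 measured sodium, calcium and HCN channel genes none was called, with medians of 0.04 in FGF3+10 and 0.35 in DFNB. Their array means were 2.82 to 2.95 in FGF3+10, narrowly apart from 2.12 to 2.79 in hESC, and 2.67 to 3.01 in DFNB, which overlapped hESC.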

How the data were processed

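Total RNA from 9 cultures was amplified, biotin-labelled and hybridised to Affymetrix arrays, per the labels' protocols. The authors deposited 1 table of log values, taken here as log2 and already set to a common median; no source used here states the software, background correction or base. It holds 54675 probe sets, 62 of them controls. Of these, 41091 have 1 symbol in the platform annotation and 1801 several (none named from these), and 41037 matched RefSeq by Entrez identifier. Of the 87 members, 48 had several probe sets (170 in all), and a probe set of opposite sign occurred in 21 of the 48 in FGF3+10 and 24 in DFNB. The 10 antisense or overlapping-transcript genes and 5 probe sets naming several genes were left out.

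Differences were fitted with limma 3.58.1 in R 4.3.3 (lmFit, eBayes) over all 9 arrays and all 19775 genes, with 1 mean per group, 6 residual degrees of freedom and Benjamini-Hochberg adjustment, called below 0.05; the steps were tested on simulated data. Each SE given with a change is from this fit without the line and so holds the spread between lines. The cell line F test had group and line as terms. Nothing says that the arrays of a group came from repeated cultures of a line, so p-values measure the spread between these lines. An exact permutation of 3 against 3 arrays cannot go below 0.1, so none was run. The cell line pairs the arrays, and the correlations of deviations from the group means within Shef3, H14 and Shef1 were 0.181, 0.258 and 0.283 for FGF3+10 and hESC, 0.105, 0.0861 and 0.338 for DFNB and hESC, and 0.400, 0.331 and 0.713 for FGF3+10 and DFNB. Array number limits the precision. The members, classes and lists were chosen with earlier results of these data known. Named genes are those called, the inner ear genes, and, among members that reach level 6, the highest of each class, the 8 largest moderated t against hESC in each medium, the 4 between media and the 5 largest F between lines; others were chosen after their values were seen.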

Additional observations from a re-analysis of the deposited data

How the results depend on the processing

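Among named genes, 712 of the recomputed values kept their sign and side of the threshold, 23 turned sign, 11 passed where they had not and 21 lost a call, all of these KCNS1. With the replicate block 115 genes and 3 members were called in FGF3+10 against hESC and 189 and 4 in DFNB against hESC; it changed no other call. Without dim genes (mean below 4) the counts were 66 genes in FGF3+10 and 122 in DFNB, and 491 genes and 1 member between lines; with quantile normalization 58 genes and with the mean of probe sets 217 genes and 1 member (KCNA5) differed between lines. Leaving out a group gave 10 genes between lines without FGF3+10, 6 without DFNB and 4 without hESC. Members whose groups do not overlap numbered 7 in FGF3+10 and 13 in DFNB with values below 4 set to 4, 6 and 12 without dim genes, and 0 between FGF3+10 and DFNB in both settings, since fewer values can be ordered or fewer genes are left. No share of all genes is given for these settings, so these counts are not read as a result about the members. The median change of the members in FGF3+10 was 0 with that floor and 0.031 with the mean of probe sets. Level 6 became 30 members at level 5, 9 at level 7, 9 on at least 3 arrays and 8 with the mean of probe sets.

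Leaving out a line or an array gave 0 to 32 genes and 0 to 2 members called in FGF3+10 against hESC, and 0 to 72 genes and 0 to 1 members in DFNB against hESC. Members without overlap ranged over 20 to 46, 28 to 44 and 5 to 30 (FGF3+10 against hESC, DFNB against hESC, FGF3+10 against DFNB), the higher values in groups of 2 arrays. Groups of 2 arrays overlap less for any gene, and the all-gene shares are not given here either. The median change of the members ranged from -0.29 to -0.046 in FGF3+10 and from -0.26 to 0.073 in DFNB. Without Shef3 no gene was called in either comparison, nor without H14. Small changes turned sign. In FGF3+10 the range was -0.85 to 0.33 for KCNE1, -0.74 to 0.011 for KCNG1, -0.25 to 1.26 for KCNJ10 and -1.71 to 0.52 for KCNQ1. In DFNB it was -1.32 to 0.69 for KCNE1, -0.68 to 0.32 for KCNG1, -0.38 to 0.91 for KCNJ10 and -0.41 to 0.14 for KCNMB4. KCNG1 in DFNB was 0.015 with quantile normalization, and with the mean of probe sets KCNJ10 was -0.43 in FGF3+10 and -0.34 in DFNB and KCNQ1 0.36 in FGF3+10. The cause of these turns was not tested. No background level was measured, so how far the 43 members below 4 on all arrays rise above it is unknown.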

Other observations

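KCNJ2 and KCNJ16 lie next to each other on chromosome 17 in the RefSeq annotation, with only lncRNA genes between them, and had changes of opposite sign in both media. KCNJ2 changed by 2.32 in FGF3+10 and 3.42 in DFNB, and KCNJ16 by -3.23 in FGF3+10 and -2.94 in DFNB. Neither passed. Within lines the sizes did not run together: in FGF3+10 the change of KCNJ2 was 2.72, 4.36 and -0.11 in Shef3, H14 and Shef1, and that of KCNJ16 -0.63, -2.84 and -6.21. The pair was chosen after its values were seen.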
